A study of Mus musculus with 7 samples.

Results

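Genes away from the Amigo1 locus were compared between olfactory epithelium of Amigo1neo/neo mice (neo, 3 libraries) and of Amigo1-/- mice (KO, 3 libraries), at postnatal day 7. The genes taken were those of the deposited count table, without about 1 Mb of chromosome 3 around Amigo1, chromosomes X and Y, and symbols starting Olfr or Vmn. This left 44403 of 50600 genes, and 16008 of them had enough counts to be tested. The neo allele carries a neomycin cassette where the Amigo1 coding sequence was, and the labels do not say how the KO allele was made. Amigo1 itself had 0, 8 and 16 counts in the KO libraries and 11, 5 and 1 counts in the neo libraries, against 744 in the 1 Amigo1+/+ library (WT). The comparison asks what differs between 2 alleles that both lack it. WT has no replicate, entered no test, and is given beside the results.

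The olfactory epithelium is a sheet of sensory neurons, supporting sustentacular cells and dividing basal cells, lying on connective tissue with mucus-secreting glands. It covers thin turbinate bones that are still forming and being remodelled in newborn mice, and large nasal glands that secrete lipocalins and other odorant-binding proteins open nearby. A dissected piece can hold all of these. In bulk RNA, fewer cells of a type and less RNA per cell cannot be told apart.

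Gene counts per library ran from 14879415 to 21063122 in the 6 libraries compared. Omp, the marker of mature olfactory neurons, stood at 789 to 1168 CPM (counts scaled to a common library size, with TMM factors) in all 7 libraries. Neo replicate 1 stood apart. Its counts differed from those of every other library by 66.2 to 122 chi-square units per degree of freedom, against 9.58 to 38.3 between the other libraries. It was also the only female one compared, with Xist at 1145 CPM and Y-linked Ddx3y at 0 CPM. In the other 5, Xist did not exceed 4.21 CPM and Ddx3y was 61.1 CPM or more. WT was female too (643 CPM of Xist). The sample names of WT and KO share a code and a date-like number that differ in neo, so whatever these stand for cannot be told apart from genotype. Whether each library came from its own animal is not stated, so the p-values here cover only the spread among the samples at hand, which may be technical.

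Differences between neo and KO beyond the locus were many, small, and seldom clear of the spread between libraries. By edgeR's quasi-likelihood test, 1 of the 16008 genes passed an adjusted p of 0.05, on the higher side, against 0.017% of all 17638 genes tested in the table (0.00567% higher and 0.0113% lower). Without adjustment, 651 genes were higher and 766 lower in neo at a p under 0.05, 8.85% of those tested here and 9.32% of all genes tested (4.59% higher and 4.72% lower). These 2 counts were 413 and 368 without neo replicate 3, 428 and 414 without KO replicate 2, and 912 and 1304 without neo replicate 1. A log2 difference of at least 1 was found for 145 genes higher and 147 lower, where 0.941% and 1.02% of all genes tested had one. All 3 neo libraries lay on 1 side of all 3 KO libraries for 2426 genes, 1162 higher and 1264 lower, or 15.2%, close to the 15.6% of all genes tested. With limma on log2(TPM + 0.1) the split by unadjusted p was 801 above and 227 below, or 77.9% higher against 45.9% by counts. On that scale the median of all genes lay at 0.097, where by counts it lay at -0.002.

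The 1 gene past edgeR was Gm5841, a processed pseudogene on chromosome 3 (GRCm38, 8327531 to 8329707). Its level was 0.0606, 0.108 and 0.110 CPM in KO, 1.58, 2.88 and 3.52 CPM in neo, with WT at 0.0459 CPM. The neo libraries were high and the other 4 close to 0. The log2 difference was 4.71 (SE 0.50, adjusted p = 0.0360, edgeR), and the call was lost without any 1 library other than neo replicate 1. The authors' TPM values (whose headers name RSEM) did not show it, at a mean of 0.0767 in KO and 0.0567 in neo. Reads of a processed pseudogene can come from its parent gene or another copy, and its source was not tested.

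DESeq2 on the same counts passed 79 of these genes, 32 higher and 47 lower, where it passed 0.539% of all genes with an adjusted p. The authors' deposited table held 64 of these genes at an adjusted p under 0.05, 22 higher and 42 lower in neo, and 63 were in both. Of the 79, 75 were tested by edgeR too and did not overlap between the groups, against 15.6% of all genes tested. A call from the same libraries favours genes whose groups lie apart, so this share is no separate support. None of those tested by edgeR was carried by 1 library in the sense given below. Genes with too few counts for edgeR were not classed. Carns1, which makes the dipeptide carnosine abundant in olfactory neurons, was at 83.1, 90.5 and 83.5 CPM in KO, 126, 132 and 127 CPM in neo, with WT at 106 CPM. The neo libraries lay close together and clear of KO, with WT between them. Its log2 difference was 0.58 (SE 0.08, adjusted p = 5.18e-05 by DESeq2 and 0.174 by edgeR). Ndn, an imprinted gene for the neuronal growth suppressor necdin, was at 13.7, 15.1 and 13.0 CPM in KO and 26.6, 22.4 and 25.0 CPM in neo, with WT at 14.6 CPM. WT lay with KO for this gene (log2 difference 0.82, SE 0.13, adjusted p = 0.000478 by DESeq2 and 0.269 by edgeR). Cfap69, a protein of sperm flagella and olfactory cilia, was at 150, 146 and 153 CPM in KO and 207, 197 and 202 CPM in neo (log2 difference 0.43, adjusted p = 0.00488, DESeq2). Higher alike were Nap1l5, an imprinted gene (0.73), the splicing factor gene Srsf5 (0.48), the histone gene Hist3h2a (0.59) and Ggt7, of the gamma-glutamyltransferase family (0.54), with adjusted p from 0.00425 to 0.0139 by DESeq2.

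Lower alike in neo was Ppp1r3b, whose product brings protein phosphatase 1 to glycogen. It was at 44.5, 38.4 and 32.8 CPM in KO, 21.7, 21.3 and 17.5 CPM in neo, with WT at 30.6 CPM, below every KO library (log2 difference -0.94, SE 0.15, adjusted p = 8.71e-05 by DESeq2 and 0.269 by edgeR). Edem3, a mannosidase that marks misfolded glycoproteins for disposal, was at 160, 165 and 133 CPM in KO and 97.1, 103 and 103 CPM in neo. Clec2d, a lectin-like ligand of natural killer cell receptors, was at 36.8, 39.0 and 33.6 CPM in KO and 21.6, 24.0 and 24.6 CPM in neo. For both, no neo library reached the lowest KO library (log2 differences -0.60 and -0.64, adjusted p = 0.00149 and 0.00359, DESeq2). Fam46a, a poly(A) polymerase known from bone-forming cells, differed by -1.08 and Wif1, a secreted Wnt inhibitor, by -0.97 (adjusted p = 0.000884 and 0.00106, DESeq2). DESeq2 also passed the processed pseudogenes Gm6166 and Gm11942, but these split KO. Gm11942 was at 0.182, 44.8 and 51.3 CPM in KO, at most 0.0426 CPM in neo and at 46.6 CPM in WT, so KO replicate 1 lay with neo and WT with the other KO libraries. Gm6166 was at 0, 6.59 and 7.23 CPM in KO, at most 0.0852 CPM in neo and at 0.230 CPM in WT.

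Among differences of at least 1 on the log2 scale, 22 genes were separated, meaning that the groups did not overlap and their nearest libraries were at least 1.5-fold apart. Of these, 12 were higher in neo (0.085% of all genes tested were separated and higher) and 10 lower (0.113%), and WT lay nearer KO for 18. Protein-coding genes gave 14 of the 22, and the other 8 were pseudogenes, an antisense gene, a mitochondrial tRNA gene and loci of unsettled type. Only Gm5841 among them passed edgeR, and 21 had an unadjusted p under 0.05. With a pseudocount of 2 in place of 0.5 the number separated was 5, since most of these genes are at a few CPM.

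**Figure D1:**
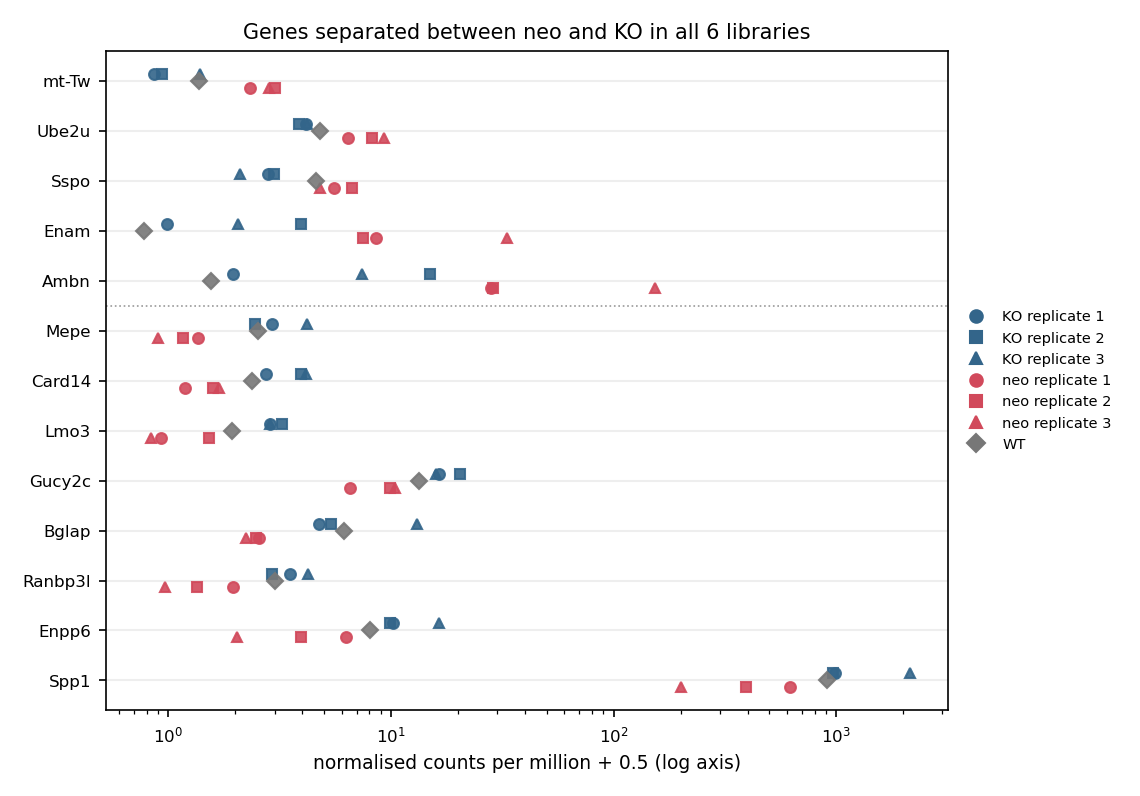
Levels in each library (CPM + 0.5, log axis) of the 13 separated genes with a mean of at least 1 CPM and an established symbol, higher in neo above the dotted line and lower below. Each point is 1 library, KO in blue, neo in red and WT in grey, and no red point overlaps the blue ones for any gene. WT lies nearer KO than neo for all but Sspo. It is within the KO range for some genes, such as Mepe and Bglap, and between the groups for others, such as Gucy2c and Lmo3. For Enam and Ambn it lies below KO.

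The separated genes outside bone and tooth had varied roles. Ube2u, a ubiquitin-conjugating enzyme gene, was at 3.63, 3.35 and 3.70 CPM in KO and 5.92, 7.75 and 8.76 CPM in neo (log2 difference 1.06, SE 0.21). Sspo, the gene for the large secreted protein SCO-spondin, was at 2.30, 2.48 and 1.60 CPM in KO and 5.03, 6.19 and 4.31 CPM in neo, with WT at 4.09 CPM. Sspo is the separated gene above 1 CPM in which WT lay with neo. The mitochondrial tryptophan tRNA gene mt-Tw was at 0.363, 0.432 and 0.883 CPM in KO and 1.83, 2.52 and 2.32 CPM in neo, and poly(A) capture recovers mature tRNA poorly. On the lower side Gucy2c, the guanylate cyclase receptor for guanylin, had the most counts outside bone, at 15.9, 19.8 and 15.4 CPM in KO, 6.05, 9.43 and 9.95 CPM in neo, with WT at 12.8 CPM (log2 difference -1.02, SE 0.21, adjusted p = 0.340 by edgeR and 0.0069 by DESeq2). Enpp6, a choline phosphodiesterase gene, was at 9.75, 9.39 and 16.0 CPM in KO and 5.79, 3.43 and 1.53 CPM in neo, and Ranbp3l differed by -1.69. Neo replicate 3 was lowest for Enpp6. Lmo3, a LIM-domain cofactor gene, was at 2.36, 2.75 and 2.37 CPM in KO and 0.426, 1.02 and 0.332 CPM in neo. Card14, a scaffold of NF-kappaB signalling in keratinocytes, was at 2.24, 3.45 and 3.64 CPM in KO and 0.682, 1.08 and 1.19 CPM in neo. The glutamate receptor gene Gria1 (0.828 to 1.13 CPM in KO, 0.0664 to 0.180 CPM in neo) and the GABA transporter gene Slc6a11 (0.648 to 1.44 CPM and 0.120 to 0.133 CPM), named after their values were seen, were separated too at under 1 CPM.

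Genes of bone lay lower in neo across most of their lists. Of 20 tested genes of bone-forming cells, 0 had a positive log2 difference, where 49.6% of all genes tested and 48% of those beyond the locus did. The median was -0.85 beside -0.002 for all genes, and for 12 of the 20 every neo library lay below every KO library (7.69% of all genes tested). None passed edgeR over all genes, 12 had an unadjusted p under 0.05, and DESeq2 passed 5. Of 11 genes of bone-resorbing osteoclasts, 0 were positive, the median was -0.90, 8 did not overlap, and DESeq2 passed 2. These lists were drawn up with earlier results of these data known, and the genes of a list are not independent of each other.

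The members with large differences were products of mature matrix-making cells. Bglap, which encodes the hormone and matrix protein osteocalcin, was at 4.24, 4.86 and 12.6 CPM in KO, 2.04, 1.98 and 1.73 CPM in neo, with WT at 5.65 CPM. The neo libraries lay together, and KO replicate 3 was far above the others. The log2 difference was -1.91 (SE 0.43, adjusted p = 0.384 by edgeR and 0.00488 by DESeq2). Bglap has near-identical neighbours, so its counts are uncertain, and on the authors' TPM scale its mean was 126 in KO and 39.6 in neo. Mepe, a phosphoprotein of osteocytes, was at 2.42, 1.94 and 3.70 CPM in KO, 0.852, 0.661 and 0.398 CPM in neo, with WT at 2.02 CPM (log2 difference -2.03, SE 0.38, adjusted p = 0.340 by edgeR and 0.0132 by DESeq2). Spp1, which encodes osteopontin, was at 990, 968 and 2143 CPM in KO, 619, 394 and 199 CPM in neo, with WT at 905 CPM (log2 difference -1.76, SE 0.54, adjusted p = 0.498, edgeR). For these genes neo replicate 3 was lowest and KO replicate 3 highest, with WT among or near the other KO libraries.

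Bglap and Spp1 are classic targets of the bone transcription factor Runx2. Promoters of Bglap, Mepe and Spp1 are shown as examples that hold its recognition letters. RefSeq promoters (build GRCm38.p6, 250 bases before to 50 after each start site, 5′ to 3′ on the gene's strand) were searched for TGTGGT on both strands. The motif was in 16.8% of 32851 promoters, and 18.9% of genes had it in at least 1 promoter. It was found for 6 of the 13 bone-forming genes with a promoter in the table. The promoters of Ibsp and Col1a2, also lower in neo, did not hold it, nor did another promoter of Spp1. Capitals mark the motif on either strand in Bglap (chr3:88384417-88384716, minus strand, at -132 from the start site), Mepe (chr5:104325079-104325378, plus strand, at -118 and -80) and Spp1 (chr5:104434861-104435160, plus strand, at -128). A match describes letters only, and binding was not measured.
Bglap: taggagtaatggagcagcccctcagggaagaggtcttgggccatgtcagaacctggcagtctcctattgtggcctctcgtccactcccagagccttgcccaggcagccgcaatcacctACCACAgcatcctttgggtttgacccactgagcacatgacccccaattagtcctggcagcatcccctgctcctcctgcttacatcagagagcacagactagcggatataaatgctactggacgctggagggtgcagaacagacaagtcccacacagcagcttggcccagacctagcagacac
Mepe: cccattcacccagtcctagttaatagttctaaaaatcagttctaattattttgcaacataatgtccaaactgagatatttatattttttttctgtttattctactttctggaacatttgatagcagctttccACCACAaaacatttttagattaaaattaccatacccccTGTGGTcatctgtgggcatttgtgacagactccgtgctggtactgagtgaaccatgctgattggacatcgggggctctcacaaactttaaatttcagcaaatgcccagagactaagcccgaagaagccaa
Spp1: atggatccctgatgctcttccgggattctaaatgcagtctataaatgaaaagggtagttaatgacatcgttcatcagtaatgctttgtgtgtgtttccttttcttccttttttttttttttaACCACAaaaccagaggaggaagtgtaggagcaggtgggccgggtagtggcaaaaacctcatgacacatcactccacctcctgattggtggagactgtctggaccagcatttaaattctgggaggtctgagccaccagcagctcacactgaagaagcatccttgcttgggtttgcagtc

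Mepe and Spp1 belong to a run of tooth and bone matrix genes on chromosome 5 that also holds Dmp1 and Ibsp. Dmp1, which controls mineralisation in osteocytes, was at 119, 105 and 185 CPM in KO and 71.1, 32.9 and 13.1 CPM in neo, with WT at 90.6 CPM. Ibsp, bone sialoprotein, was at 707, 681 and 945 CPM in KO and 497, 275 and 117 CPM in neo, with WT at 549 CPM. In both, neo replicate 3 lay farthest from KO, and the groups did not overlap (log2 differences -1.79 and -1.39, adjusted p = 0.535 for both, edgeR). The collagen I genes, shared with fibroblasts, were the most abundant of the list. Col1a1 was at 4650, 3565 and 5785 CPM in KO and 2695, 2503 and 1397 CPM in neo, with WT at 4054 CPM (log2 difference -1.09, SE 0.27, adjusted p = 0.430 by edgeR and 0.00334 by DESeq2). Sparc, or osteonectin, differed by -0.85 and Col1a2 by -1.11 (adjusted p = 0.00764 and 0.00132, DESeq2). The transcription factors that define the lineage differed less, with Runx2 at -0.34 and overlapping groups, and Sp7 at -0.85 without overlap. Bglap3, which by sequence belongs with Bglap, did not follow it: it was at 60.8, 53.0 and 39.0 CPM in KO and 8.65, 81.2 and 45.5 CPM in neo, low in neo replicate 1 alone.

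Osteoclast genes followed the same order of libraries. Ctsk, the protease that digests bone collagen, was at 299, 274 and 566 CPM in KO, 227, 145 and 101 CPM in neo, with WT at 267 CPM (log2 difference -1.27, SE 0.42). Acp5, tartrate-resistant acid phosphatase, was at 146, 149 and 332 CPM in KO and 106, 71.0 and 42.0 CPM in neo (-1.52, SE 0.50). Neither passed (adjusted p = 0.502 and 0.504, edgeR). DESeq2 passed Mmp9, a matrix protease (log2 difference -1.10, adjusted p = 0.0069), and Atp6v0d2, a proton pump subunit (-0.84, adjusted p = 0.0441). Nfatc1 and Tnfrsf11a, the transcription factor and receptor that start osteoclast formation and are also used by other cells, differed by -0.10 and -0.02.

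**Figure D2:**
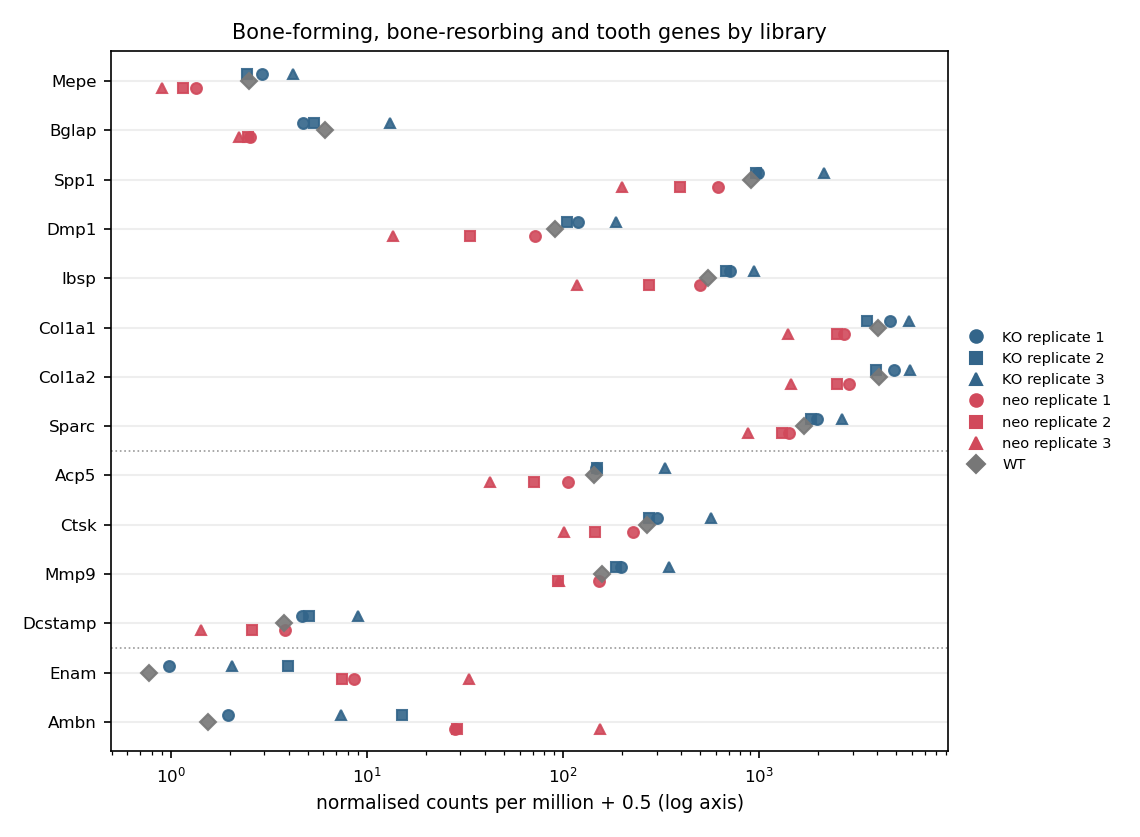
CPM + 0.5 (log axis) per library for genes of bone-forming cells (top), osteoclasts (middle) and tooth enamel (bottom). Each point is 1 library. In the upper blocks all neo points (red) lie left of the KO points (blue), neo replicate 3 is farthest left for all but Mmp9, and KO replicate 3 farthest right. In the bottom block neo lies right of KO, with neo replicate 3 at 154 CPM of Ambn.

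The sum of the bone-forming list was 14034, 11799 and 18408 CPM in KO, 8853, 7644 and 4492 CPM in neo, with WT at 12022 CPM. Every neo library was below every KO library, and neo replicate 3 was lowest. The median stayed between -1.01 and -0.63 over 18 alternatives for bone-forming genes and between -1.26 and -0.61 for osteoclast genes. These are medians of log2 differences. Without KO replicate 3 they were -0.68 and -0.61. Lists of other tissues of the nose wall had medians nearer 0, a difference that was not tested. Of 13 cartilage genes 8 were positive and 5 negative, with a median of 0.16 and a range of -1.09 to 1.18. At an unadjusted p under 0.05 (edgeR), 3 were higher and 2 lower. Among the positive ones, the cartilage collagen Col9a1 was at 28.7, 26.6 and 29.9 CPM in KO and 41.3, 36.9 and 35.7 CPM in neo (log2 difference 0.42, SE 0.11, adjusted p = 0.446, edgeR). The list summed to 543, 484 and 596 CPM in KO and 531, 412 and 335 CPM in neo, with neo replicate 3 lowest. Fibroblast and collagen genes had a median of -0.18 with 7 of 23 positive, and Col5a2, a fibril collagen also made in bone, differed by -0.64 (adjusted p = 0.0154, DESeq2). Endothelial genes were 8 of 16 positive with a median of -0.01. How much bone each dissection took is not recorded in the labels, and the part of this in the result was not tested.

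Of 5 tooth genes 3 were positive, with a median of 1.22, which was 0.37 without neo replicate 3. Ambn and Enam, which encode the enamel proteins ameloblastin and enamelin, lie side by side on chromosome 5 (88455991 to 88468531 and 88487975 to 88506049). Ambn was at 1.45, 14.5 and 6.90 CPM in KO, 27.7, 28.3 and 154 CPM in neo, with WT at 1.06 CPM. Enam was at 0.485, 3.45 and 1.55 CPM in KO, 8.09, 6.97 and 32.7 CPM in neo, with WT at 0.275 CPM. Both genes rank the 7 libraries nearly alike, from WT and KO replicate 1 to neo replicate 3, and the spread within each group was several-fold (log2 differences 3.18 and 3.10, adjusted p = 0.538 and 0.498, edgeR). The enamel regulator Dlx3 was on the negative side (log2 difference -0.20), with overlapping groups. Dspp, a gene of dentine, was at 0.221 to 2.32 CPM in KO and 1.32 to 4.65 CPM in neo.

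**Figure D3:**
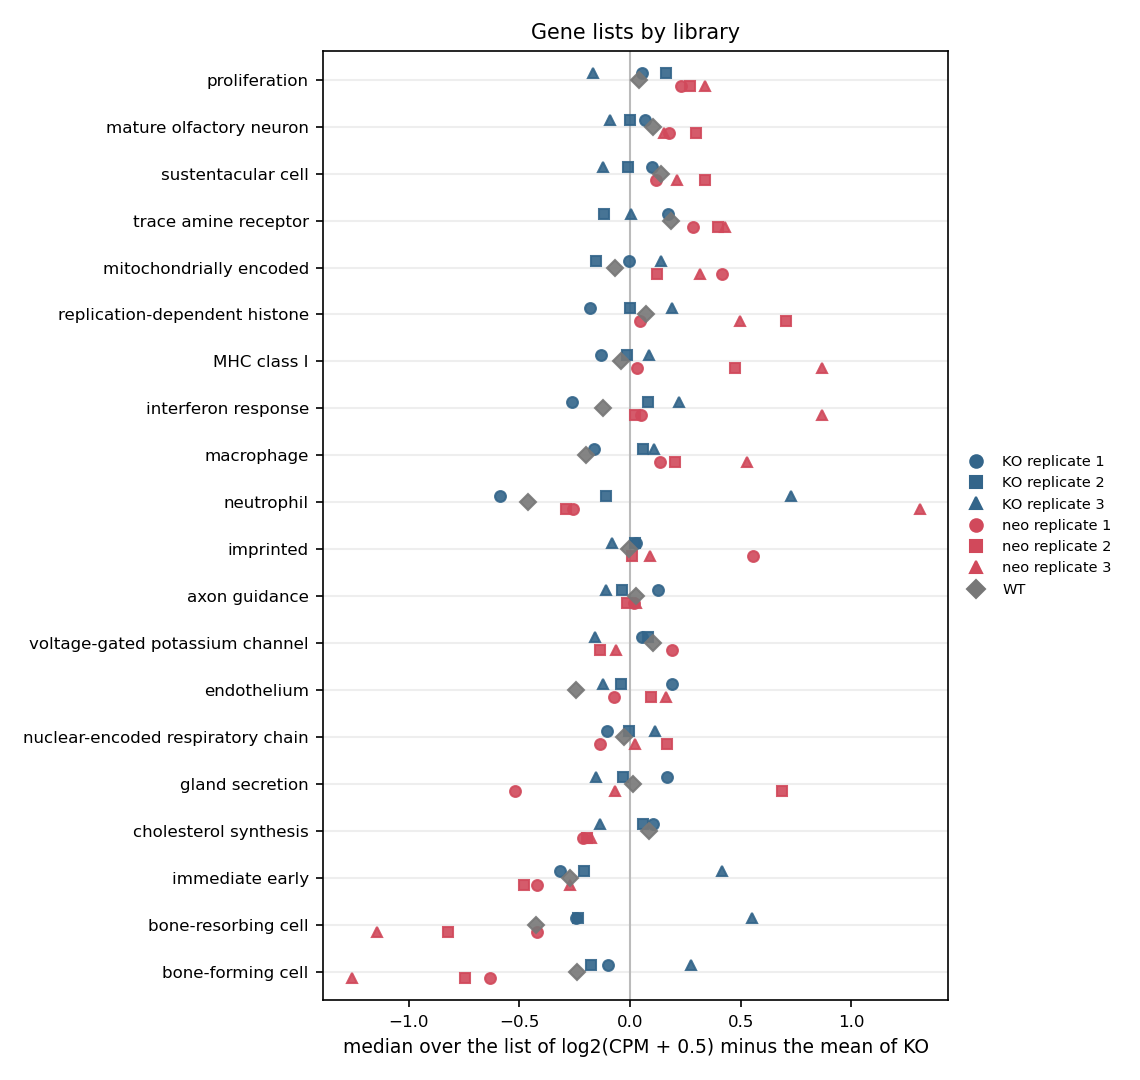
For 20 gene lists, the median over each list's tested genes of log2(CPM + 0.5) minus the mean of KO, one point per library. The bone lists lie apart between groups at the bottom. Proliferation, mature neuron, sustentacular, trace amine receptor, macrophage and cholesterol synthesis lists lie slightly apart. Some other lists are spread by a few libraries. Interferon response is high in neo replicate 3, neutrophil in neo and KO replicates 3, and MHC class I in neo replicates 2 and 3. Gland secretion is low and imprinted high in neo replicate 1, and immediate early is high in KO replicate 3.

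Most lists of the epithelium itself had small positive medians, and immature neuron genes did not. Of 20 proliferation genes 20 were positive, with a median of 0.28, and 11 did not overlap (7.9% of all genes tested were higher without overlap). No gene passed either tool, and 8 had an unadjusted p under 0.05. Mcm3, a subunit of the replicative helicase, was at 30.0, 31.4 and 20.3 CPM in KO and 34.4, 36.0 and 39.8 CPM in neo (log2 difference 0.43, SE 0.17). Ccna2, cyclin A2, was at 77.7, 93.1 and 71.9 CPM in KO and 93.5, 104 and 98.2 CPM in neo (0.28, SE 0.11). KO replicate 3 was lowest for both, and without it the median was 0.21. Of 16 precursor and basal cell genes 12 were positive (median 0.11), among them Trp63, the p63 gene of horizontal basal cells, at 0.46 (adjusted p = 0.471, edgeR). Mature neuron genes were 16 of 18 positive with a median of 0.19, and 7 did not overlap. Of 19 immature neuron genes 7 were positive with a median of -0.02, and Gap43, a growth cone protein, was at 304, 322 and 324 CPM in KO and 293, 237 and 255 CPM in neo (-0.28, SE 0.10, adjusted p = 0.502, edgeR).

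Sustentacular genes were 15 of 16 positive with a median of 0.21, and 4 were higher without overlap (7.9% of all genes tested). Sult1c1, a sulfotransferase that detoxifies inhaled compounds, was at 421, 330 and 442 CPM in KO, 542, 616 and 729 CPM in neo, with WT at 400 CPM (log2 difference 0.66, SE 0.15, adjusted p = 0.384 by edgeR and 0.0144 by DESeq2). Muc2, a gel-forming mucin, was at 27.6, 24.2 and 29.7 CPM in KO and 37.7, 38.4 and 37.2 CPM in neo (0.47, SE 0.11, adjusted p = 0.384 by edgeR and 0.0845 by DESeq2). In both genes all neo libraries lay above all KO libraries. Trace amine receptor genes, each used by few neurons, were 9 of 11 positive with a median of 0.40 and 4 higher without overlap (7.9% of all genes tested). Taar2, at 1.21, 0.648 and 1.32 CPM in KO and 1.49, 1.56 and 2.65 CPM in neo, shows how low their levels were.

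Genes close to the function of Amigo1, a leucine-rich repeat adhesion protein that partners Kv2 potassium channels, showed no common shift. Voltage-gated potassium channel genes were 8 of 16 positive with a median of -0.03, leucine-rich repeat adhesion genes 10 of 20 with a median of -0.01, and axon guidance genes 12 of 24 with a median of 0.00. Kcnh7, an ERG-family channel gene, was at 13.1, 13.3 and 11.2 CPM in KO, 7.97, 8.35 and 8.10 CPM in neo, while its relative Kcnh1 was at 7.33, 7.88 and 6.13 CPM in KO and 10.6, 10.5 and 8.63 CPM in neo. Neither overlapped between groups and neither passed (log2 differences -0.63 and 0.48, adjusted p = 0.384 and 0.498, edgeR). Slit3, a repellent axon guidance ligand, differed by -0.63 and Ntn1, netrin 1, by 0.38, both without overlap (adjusted p = 0.384 and 0.490, edgeR). Genes of olfactory axon sorting adhesion had a median of -0.13 with 4 of 12 positive.

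Metabolic lists split. Of 18 cholesterol synthesis genes 2 were positive, with a median of -0.23, and 6 were lower without overlap (7.69% of all genes tested). Msmo1, a methylsterol oxidase, was at 65.0, 57.1 and 52.6 CPM in KO, 44.9, 43.9 and 43.9 CPM in neo, with WT at 63.4 CPM, and Fdft1, squalene synthase, at 73.4, 72.6 and 69.2 CPM in KO, 61.4, 57.3 and 56.3 CPM in neo, with WT at 75.1 CPM. The neo libraries were tightly grouped and WT lay with KO in both (log2 differences -0.40 and -0.30, adjusted p = 0.454 and 0.471, edgeR). Insig1, whose product restrains the pathway, was on the other side, at 93.1, 80.1 and 84.3 CPM in KO and 98.4, 114 and 95.2 CPM in neo (0.25, SE 0.10). On log2(TPM + 1) the list median was -0.05. Of 13 mitochondrially encoded genes listed, only 7 were tested, and these 7 were all positive with a median of 0.30. By contrast, 26 nuclear-encoded respiratory chain genes had a median of 0.02.

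Activity-regulated immediate early genes were 2 of 18 positive with a median of -0.46, and KO replicate 3 weighs on this. Without it the median was -0.14 and 6 of 18 were positive. Fos was at 9.03, 6.86 and 27.9 CPM in KO and 6.01, 4.51 and 7.17 CPM in neo. Nr4a2, an orphan nuclear receptor gene, was at 15.6, 12.6 and 19.2 CPM in KO, 7.80, 11.1 and 7.43 CPM in neo, with WT at 14.1 CPM. It did not overlap between groups, and its difference was less a matter of 1 library (log2 difference -0.85, SE 0.21, adjusted p = 0.420 by edgeR and 0.0524 by DESeq2). Ddit4, a stress and glucocorticoid target that restrains mTOR, was at 38.4, 42.0 and 45.2 CPM in KO and 31.6, 28.4 and 29.9 CPM in neo, with WT at 40.8 CPM (-0.48, SE 0.11, adjusted p = 0.364 by edgeR and 0.0441 by DESeq2).

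Another kind of difference was carried by 1 library. For 46 genes the group means of log2(CPM + 0.5) were at least 1 apart and less than 50% of that remained when 1 library was left out. Of these 17 were higher in neo (0.102% of all genes tested) and 29 lower (0.204%). Neo replicate 1 carried 36, KO replicate 3 carried 6, neo replicate 2 carried 2, KO replicate 1 and neo replicate 3 carried 1 each, and KO replicate 2 none. None of the 46 was separated, none passed edgeR or DESeq2, and 3 had an unadjusted p under 0.05. DESeq2 gave no adjusted p for some of them.

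Neo replicate 1 lacked a set of secreted gland products. Bpifb9b, a BPI-fold protein of nasal secretions and among the most abundant transcripts here, was at 39233, 35395 and 22639 CPM in KO, 95.9, 22722 and 15815 CPM in neo, with WT at 25072 CPM. Neo replicate 1 was far below every other library, and neo replicates 2 and 3 lay near the lowest KO library. Its neighbours on chromosome 2 were also lowest in neo replicate 1, with Bpifb9a at 26.1 CPM and Bpifb5 at 7.54 CPM. Elsewhere they were at 4424 and 994 CPM or more. Bpifb5 was below every KO library (1400 to 2031 CPM) in neo replicates 2 and 3 too, at 1270 and 994 CPM. Mup4 and Mup5, urinary proteins of the lipocalin family that are also made in nasal glands, were at 0.809 and 0.426 CPM in neo replicate 1, where Mup4 was at 734 to 954 CPM in KO, 1692 and 261 CPM in the other neo libraries and 395 CPM in WT. Mup genes are near-identical copies, so reads can be split among them. On chromosome 5 Odam, which encodes a secreted protein of junctional epithelium and glands, Cabs1, 2310003L06Rik and BC051076 were low together. BC051076 was at 74.1 CPM in neo replicate 1 and at least 2976 CPM in the other libraries. Odam was at 226 to 283 CPM in KO, 213 and 117 CPM in neo replicates 2 and 3, and 191 CPM in WT. Without neo replicate 1 the log2 differences were -0.61 for Bpifb5, -1.33 for Mup5 and -0.67 for Odam. Bpifb9a, Mup4 and BC051076 overlapped KO in the other neo libraries. Also among the 20 lower genes were 5430401F13Rik and Gm6619, which overlap and can share reads, and A4gnt, an enzyme of gland-type mucin sugars.

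This was not a loss of all gland genes. In neo replicate 1 Bpifb4 was at 1578 CPM and Bpifb6 at 588 CPM, against 1313 to 1459 and 442 to 494 CPM in KO, and Bpifa1, the short palate and lung clone protein, was at 3588 CPM against 2394 to 3656 CPM in KO. Bpifb6 passed DESeq2 as higher in neo (494, 482 and 442 CPM in KO, 588, 771 and 653 CPM in neo, log2 difference 0.50, adjusted p = 0.0293, DESeq2). The sum of the 26 gland secretion genes was 9903 CPM in neo replicate 1, 34719 and 52814 CPM in the other neo libraries, 42039 to 65964 CPM in KO and 45628 CPM in WT.

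Neo replicate 1 also held skeletal muscle RNA. The 9 skeletal muscle genes summed to 1106 CPM in it and to between 8.56 and 26.9 CPM in the other 6 libraries. Acta1, skeletal actin, was at 326 CPM there and at no more than 7.12 CPM elsewhere, and Myh8, perinatal myosin heavy chain, at 279 CPM against 0.0459 to 2.93 CPM. Ckm, muscle creatine kinase, was at 96.9 CPM against 0.0664 to 1.44 CPM. Without neo replicate 1 the muscle median went from 4.35 to -0.65. Dlk1, an imprinted gene high in growing muscle, followed, at 32.8 CPM against 2.21 to 3.54 CPM in the rest, and so did Rian and Meg3, its imprinted neighbours on chromosome 12 (77.9 and 69.1 CPM, against at most 20.9 CPM for either elsewhere). The median of the imprinted list was 0.32 with neo replicate 1 and 0.07 without it. Ndn, described above, did not depend on that library (log2 difference 0.76 without it).

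**Figure D4:**
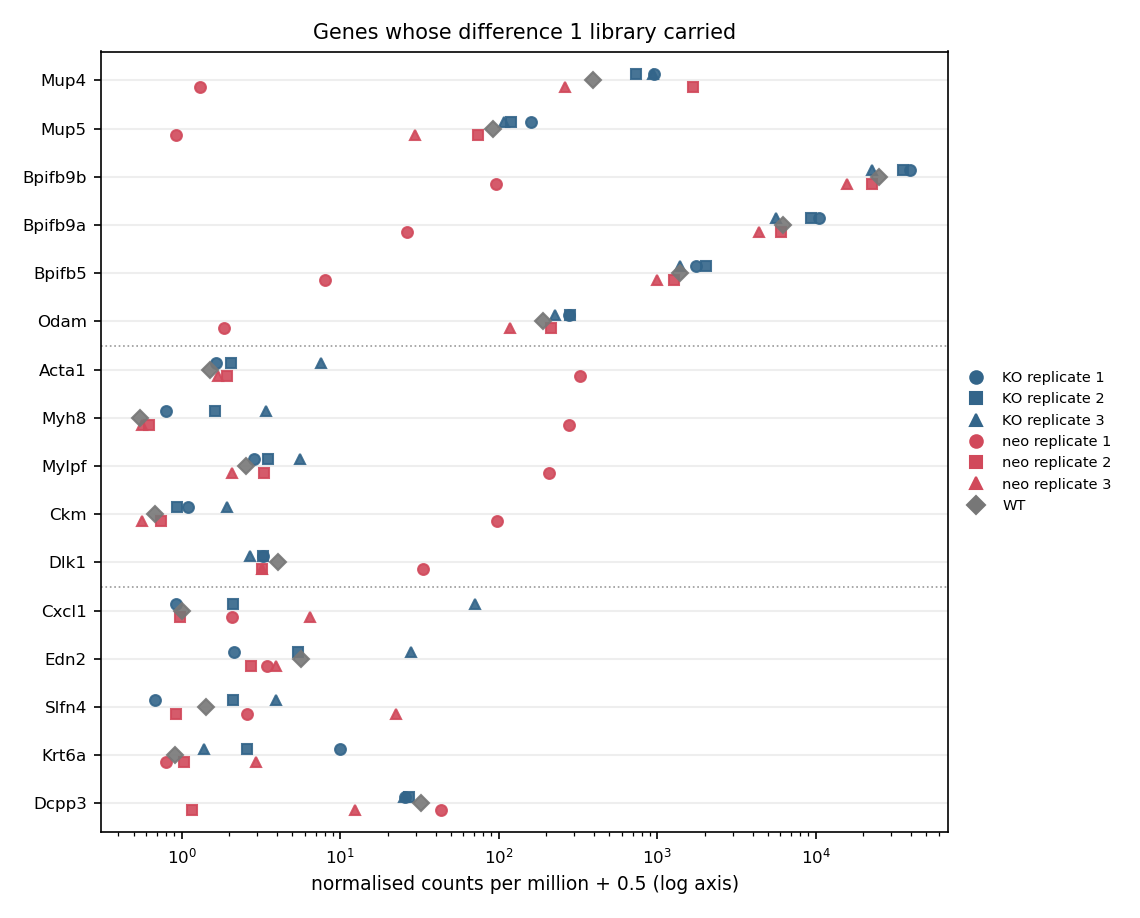
CPM + 0.5 (log axis) per library for genes whose difference 1 library carried. Gland products (top) are low and muscle genes and Dlk1 (middle) high in neo replicate 1 (red circle), and in the bottom block Cxcl1 and Edn2 are high in KO replicate 3 (blue triangle), Slfn4 in neo replicate 3 and Krt6a in KO replicate 1, while Dcpp3 is low in neo replicate 2.

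Genes carried by KO replicate 3 included genes of inflammation and of squamous epithelium. Cxcl1, a chemokine that draws neutrophils, was at 0.424, 1.62 and 70.1 CPM in KO and 1.58, 0.481 and 5.97 CPM in neo. Edn2, endothelin 2, was at 1.64, 4.91 and 27.4 CPM in KO and 2.22 to 3.45 CPM in neo. The squamous gene Sprr1a, the steroid enzyme gene Hsd17b2 and Wisp2, of the CCN family, were also carried by it. Lcn2 and Serpina3n, acute phase genes, were also high there, at 651 and 411 CPM, but neo replicate 3 was high as well, at 481 and 191 CPM.

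Neo replicate 3 was high for interferon genes, and with KO replicate 3 for neutrophil genes. Slfn4, a myeloid gene induced by interferon, was at 0.182, 1.62 and 3.42 CPM in KO and 2.09 and 0.421 CPM in neo replicates 1 and 2, and far higher in neo replicate 3. Gbp2, an interferon-induced GTPase, was at 3.88, 4.91 and 6.79 CPM in KO, 4.77, 4.39 and 30.3 CPM in neo, with WT at 4.87 CPM. The interferon list was 26 of 30 positive with a median of 0.38, and 16 of 30 with a median of 0.07 without neo replicate 3. Neutrophil genes, such as Cd177 at 110 CPM in neo replicate 3 and 12.6 to 37.8 CPM elsewhere, had a median of 0.33 with all libraries, -0.48 without neo replicate 3 and 0.99 without KO replicate 3. The remaining carried genes were Krt6a, a stress keratin at 9.45 CPM in KO replicate 1 and 0.298 to 2.46 CPM elsewhere, and in neo replicate 2 Dcpp3, a gene of submandibular and nasal secretions (0.661 CPM against 11.9 to 42.6 CPM), and the proton pump gene Atp6v0c (1.38 CPM against 5.77 to 12.1 CPM). On the authors' TPM scale Atp6v0c had a mean of 288 in KO and 239 in neo, so its low counts are uncertain. Its log2 difference ran from -1.55 to -0.27 over the alternatives.

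Some genes differed from KO in neo replicates 2 and 3 and less or not in neo replicate 1. Without neo replicate 1, edgeR passed 15 of these genes, 9 higher and 6 lower, against 0.0955% of all genes tested in that fit. Genes found this way are mostly ones in which neo replicate 1 lies toward KO, so its place is given as a description. Neo replicate 1 lay inside the KO range for 5 of the 15. For 8 of them all 3 neo libraries lay on 1 side of every KO library. WT, which the choice did not use, lay nearer KO than neo replicates 2 and 3 for 15 of 15. Alad, an enzyme of haem synthesis, was at 26.9, 28.7 and 26.4 CPM in KO, 37.5, 58.0 and 70.2 CPM in neo, with WT at 30.6 CPM (log2 difference 1.01, SE 0.20, adjusted p = 0.340 with all libraries, edgeR). Nr1d1, the clock repressor REV-ERB alpha, was at 15.9, 16.8 and 14.2 CPM in KO, 14.3, 30.8 and 33.0 CPM in neo, with WT at 16.3 CPM. Neo replicate 1 was in the KO range for Nr1d1 and between the groups for Alad. Lyz2, lysozyme of macrophages and glands, was at 46.5 CPM in neo replicate 1, 98.9 and 127 CPM in the others and no more than 60.1 CPM in KO.

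Some of these genes were near absent from 5 of the 7 libraries. The processed pseudogenes Gm15487, Gm6969 and Gm9825 were at 28.2 and 14.4, 8.11 and 7.50, and 10.6 and 6.57 CPM in neo replicates 2 and 3, and at most 0.184, 0.256 and 0.221 CPM in every other library, neo replicate 1 included. Kctd21, a cullin adaptor gene, was at 6.18, 6.05 and 5.52 CPM in KO, 3.58, 1.14 and 1.06 CPM in neo, with WT at 5.65 CPM, with neo replicate 1 between the others (log2 difference -1.57 with all libraries and -2.42 without neo replicate 1). Lowest in neo replicates 2 and 3 were the citrate transporter gene Slc13a5, the adhesion gene Lingo2, the zinc finger gene Zfp60, Swt1 and the collagen gene Col24a1, with log2 differences of -1.73 to -0.86 without neo replicate 1. Leaving out KO replicate 1 instead gave 0 higher and 3 lower genes past edgeR's adjusted p of 0.05.

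**Figure D5:**
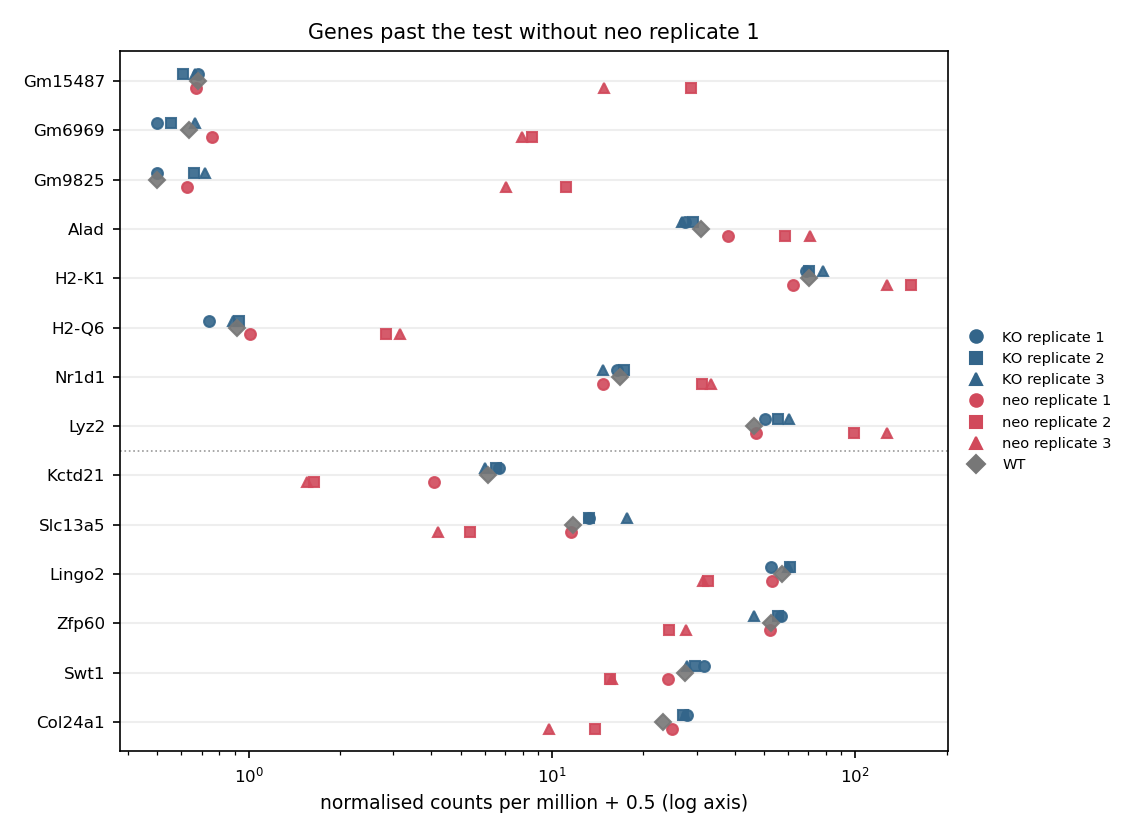
CPM + 0.5 (log axis) per library for 14 genes past edgeR's test when neo replicate 1 is left out, higher above the dotted line and lower below. Neo replicates 2 and 3 (red square and triangle) lie together on one side. Neo replicate 1 (red circle) lies nearer KO (blue) than they do, inside the KO range for some genes and outside it for others. WT (grey) also lies nearer KO.

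MHC class I genes were also higher in neo replicates 2 and 3 than in neo replicate 1 by their list medians. The classical genes H2-K1 and H2-D1, which present peptides to T cells, were at 68.4 to 78.0 and 83.6 to 105 CPM in KO, 61.9 and 71.0 CPM in neo replicate 1, 152 and 148 CPM in neo replicate 2, and 126 and 147 CPM in neo replicate 3. WT was at 69.8 and 76.5 CPM, with KO and neo replicate 1. H2-Q6 was at 0.242, 0.432 and 0.386 CPM in KO and 0.511, 2.34 and 2.65 CPM in neo, and these genes are near-identical and variable between mouse strains, so counting of reads among them is uncertain. B2m, the invariant chain, is a single gene on chromosome 2 and had a smaller difference, at 107, 111 and 117 CPM in KO, 124, 168 and 204 CPM in neo, with WT at 100 CPM (log2 difference 0.56, SE 0.16, adjusted p = 0.465, edgeR). The list was 13 of 15 positive with a median of 0.61, 0.84 without neo replicate 1 and 0.26 without neo replicate 3. Library medians against the KO mean were 0.03, 0.47 and 0.87 in neo replicates 1 to 3.

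Interferon-induced and MHC genes are driven in part through the interferon response element, searched here as GAAA, 2 bases of any kind, then GAAA. In the same promoter windows, on both strands, this was in 3.44% of promoters and 3.99% of genes, in 14 of the 22 interferon genes with a promoter and in 3 of 13 MHC class I genes. The promoters shown are those of Gbp2, Isg15 and B2m, which were all highest in neo replicate 3. Isg15, a ubiquitin-like interferon product, was at 0.848, 2.21 and 2.70 CPM in KO and 2.85, 3.37 and 5.24 CPM in neo. Capitals mark the motif on either strand at -59 in Gbp2 (chr3:142620413-142620712, plus strand), at the overlapping positions -78, -72 and -66 in Isg15 (chr4:156200769-156201068, minus strand) and at -139 in B2m (chr2:122147437-122147736, plus strand).
Gbp2: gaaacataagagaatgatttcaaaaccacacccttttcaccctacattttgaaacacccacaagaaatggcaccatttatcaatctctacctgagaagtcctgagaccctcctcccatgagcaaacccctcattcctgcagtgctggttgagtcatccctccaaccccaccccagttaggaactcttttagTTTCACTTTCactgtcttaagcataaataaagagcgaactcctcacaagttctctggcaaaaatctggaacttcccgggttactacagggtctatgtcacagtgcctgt
Isg15: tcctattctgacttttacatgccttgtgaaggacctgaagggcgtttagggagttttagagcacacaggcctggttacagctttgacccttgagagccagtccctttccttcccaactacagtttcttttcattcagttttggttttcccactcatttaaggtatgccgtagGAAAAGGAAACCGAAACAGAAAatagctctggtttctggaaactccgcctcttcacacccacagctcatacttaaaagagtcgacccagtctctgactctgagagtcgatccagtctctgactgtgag
B2m: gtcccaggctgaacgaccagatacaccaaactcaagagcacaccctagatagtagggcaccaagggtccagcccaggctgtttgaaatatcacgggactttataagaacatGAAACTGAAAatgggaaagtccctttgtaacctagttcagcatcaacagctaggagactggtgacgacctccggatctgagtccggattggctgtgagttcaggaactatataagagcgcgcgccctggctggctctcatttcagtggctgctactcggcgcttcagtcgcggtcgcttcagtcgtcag

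Replication-dependent histone genes, whose messages mostly lack poly(A) tails, followed neo replicates 2 and 3 too. All 17 were positive with a median of 0.50, 0.70 without neo replicate 1 and 0.25 without neo replicate 2. Hist1h1c, a linker histone gene, was at 71.6, 65.4 and 95.4 CPM in KO, 86.3, 231 and 178 CPM in neo, with WT at 58.9 CPM (log2 difference 1.09, SE 0.38, adjusted p = 0.505, edgeR). Neo replicate 1 lay inside the KO range and the other neo libraries far above it. Proliferation genes had a similar level in neo replicate 1 (median 0.23 against the KO mean) as in replicates 2 and 3 (0.27 and 0.34). Macrophage genes were graded, with medians of 0.14, 0.20 and 0.53, and 14 of 20 were positive. Ctss, a lysosomal protease of antigen-presenting cells, was at 19.9, 22.3 and 21.4 CPM in KO, 27.6, 29.0 and 42.3 CPM in neo, with WT at 16.3 CPM (log2 difference 0.63, SE 0.17, adjusted p = 0.454, edgeR), without overlap. Cd68, another macrophage marker that osteoclasts also express, was at 14.4, 16.3 and 32.3 CPM in KO and 14.4, 11.3 and 12.6 CPM in neo.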

How the data were processed

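Mouse olfactory epithelium RNA (postnatal day 7) went into poly(A)-captured libraries with a KAPA RNA Hyperprep kit, per the labels' protocols. The submitters' processing notes name Trimmomatic 0.35, STAR 2.5.1b, RSEM, DESeq2 1.18.1 and GRCm38 (mm10) without roles. The authors deposited raw counts per gene from a table whose header says stranded, TPM values, and a DESeq2 table of KO against neo, from which the adjusted p-value and log2 fold change were used here. Summary lines that name no gene, 4 in all, took 35.6 to 41.8% of reads and were left out. Columns were matched to samples by name.

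Counts were tested with edgeR 4.0.16 (TMM, robust quasi-likelihood, filterByExpr with a minimum count of 10, R 4.3.3) across all genes, with Benjamini-Hochberg adjustment, on the 6 libraries of KO and neo. DESeq2 1.42.0 and limma 3.58.1 on log2(TPM + 0.1) were alternatives, with 18 alternatives in all. The methods were checked on simulated counts of 17638 genes, at an adjusted p under 0.05. Of 98 genes changed by 1 on the log2 scale, edgeR recovered 77.6% and DESeq2 86.7%. Of 102 changed by 2, they recovered 98% and 99%. Genes with few counts were not among those changed, and no library was simulated as an outlier. Recovery for such genes and libraries was therefore not tested. Among unchanged genes edgeR made 23 false calls and DESeq2 45, so some genes passed by either tool can be false. Genes named were those past either tool, up to 12 separated genes per direction, up to 12 per direction past edgeR without neo replicate 1, up to 10 per direction by DESeq2, up to 6 carried by each library and up to 4 per list with the smallest p, besides markers and others shown for their levels after they were seen. The members and the 45 gene lists were chosen with earlier results of these data known. 1 result is not reported here.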

Additional observations from a re-analysis of the deposited data

How the results depend on the processing

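The count of genes past an adjusted p of 0.05 rested on the method and on single libraries. The 1 higher gene by edgeR became 32 with DESeq2 and 11 with no count filter, and 0 with at least 50 counts in 3 libraries, without the robust option, or with limma on log2(TPM + 0.1), on log2(TPM + 1) or on log2(TPM + 0.1) with no filter. The 0 lower genes became 47 with DESeq2 and 20 with no count filter. Leaving out 1 library gave 0 to 9 higher and 0 to 6 lower. At an unadjusted p under 0.05, limma gave 227 lower genes with either pseudocount, and 1050 higher and 398 lower with no filter, against 651 and 766 by edgeR. Leaving out 1 library gave 413 to 912 higher and 368 to 1304 lower. Separated genes went from 22 to 5 with a pseudocount of 2 and to 40 to 128 without 1 library. Genes carried by 1 library went from 46 to 30 with a pseudocount of 2 and to 175 when a difference of log2(1.5) sufficed. The log2 difference of Gm5841 was reversed, at -0.24, on log2(TPM + 0.1) with no filter. The cause was not tested for these changes. Of list medians under the alternatives, 715 stayed within the spread and 95 moved. Of 3911 log2 differences of named genes under the alternatives, 3801 kept sign and side of the threshold, 64 came to pass it and 7 ceased to. Another 38 had the other sign without passing in either fit, and 1, that of Gm5841, reversed. In all, 27 of 220 genes had the other sign somewhere.

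Replicate numbers did not pair the samples: deviations of same-numbered libraries correlated at -0.096, -0.051 and 0.203, and neo replicate 2 went best with KO replicate 1 (0.238). With the replicate block, 0 genes passed higher, and an unadjusted p under 0.05 was reached by 536 genes higher and 706 lower. With 3 libraries a group, a gene that did not pass was not shown to be alike in both.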
